A study of Mus musculus with 13 samples.

Results

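The genes described here are 51 genes of the lysosome: 34 that code for lysosomal hydrolases, other soluble lysosomal proteins, lysosomal membrane proteins and the transcription factor Tfeb, and 17 whose symbols begin with Atp6 and that code for subunits of the vacuolar proton pump, the V-ATPase. They were taken from a list of symbols, with the condition that the expected count summed over all 13 libraries was at least 10. All 51 listed genes met it, of 22984 genes in the series that did, and all 51 were among the 17483 genes tested. RNA was taken from the frontal cortex of the brain at 6 and at 11 months of age. The wild-type groups, of strain B6SJLF1/J, had 4 libraries at 6 months and 3 at 11 months, and the 5XFAD groups had 3 libraries at each age. 5XFAD mice carry human transgenes with familial Alzheimer's disease mutations, driven by the neuronal Thy1 promoter, and they form amyloid plaques with strong gliosis. No treatment was named for any group. The labels do not say that each library came from its own animal, so the p-values below measure only the spread between these libraries.

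Lysosomes break down proteins, glycans and lipids delivered by endocytosis, phagocytosis and autophagy, and most of their hydrolases work only in an acid interior. The V-ATPase supplies that acid: its cytosolic V1 sector splits ATP and turns a rotor that drives protons through the membrane-bound V0 sector. In brain the same pump also loads synaptic vesicles, since the proton gradient powers transmitter uptake, so neurons use it well beyond the lysosome. TFEB is a transcription factor that activates many lysosomal and V-ATPase genes through promoter sites containing the letters CACGTG.

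Library totals ran from 23618296 to 26615776 expected counts, and 7.89 to 11.43% of them fell on mitochondrial genes. The tissue label was checked against lists of cell type markers. The 12 neuron markers summed to between 8605 and 11787 CPM (counts-per-million, with library sizes scaled by the trimmed mean of M values, TMM) and no neuron marker passed the test in either genotype comparison. By Xist and Y-linked genes, the wild-type groups held 2 females and 2 males at 6 months and 1 female and 2 males at 11 months. The 5XFAD groups held 3 males at 6 months, and 2 females and 1 male at 11 months. Some libraries stood apart in markers of neighbouring tissue or other cell types. Wild-type replicate 1 at 6 months had 3001 summed CPM of choroid plexus markers against 5.53 to 39.1 in the other 12 libraries. Wild-type replicate 3 at 6 months had 14126 summed CPM of oligodendrocyte markers against 5819 to 12157 elsewhere. Markers of the neighbouring striatum were highest, at 3702, in that same library and next highest, at 3063, in wild-type replicate 3 at 11 months. Counts of members below are given also without these 3 libraries where that changes them by more than 1.5 times.

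Levels of different genes were compared in TPM (transcripts-per-million), which takes transcript length into account. In wild-type cortex at 6 months the median V-ATPase gene stood at 287 TPM and the median lysosomal gene at 22.9 TPM. Of the 18 most abundant members, 15 were V-ATPase genes, and the other 3 were Psap, Lamp1 and Gaa. Atp6v0c, which codes for the proteolipid that makes up most of the rotating ring, had the highest level, at 1953 TPM, and Psap, the precursor of the saposins that present sphingolipids to their hydrolases, had 837 TPM. The lowest lysosomal gene was Sgsh, a heparan sulphatase, at 1.96 TPM. Lowest of all was Atp6v0d2, at 0.0375 TPM.

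At 6 months, 8 of the 34 lysosomal genes were higher in 5XFAD than in wild-type cortex and none was lower. That is 23.5% of them, against 1.3% of all genes tested that were called higher (adjusted p under 0.05, edgeR's quasi-likelihood test with Benjamini-Hochberg adjustment over all 17483 genes). Called lower were 0.0172% of all genes, and no lysosomal member was lower even at an unadjusted p under 0.05. The median log2 fold change of the 34 was 0.18, against -0.01 over all genes. The 8 were the hydrolases Hexa, Gusb and Lgmn, the soluble proteins Grn, Npc2 and Creg1, and the membrane proteins Lamp2 and Laptm5. In bulk tissue, more cells of a type and more RNA per cell cannot be told apart.

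**Figure D1:**
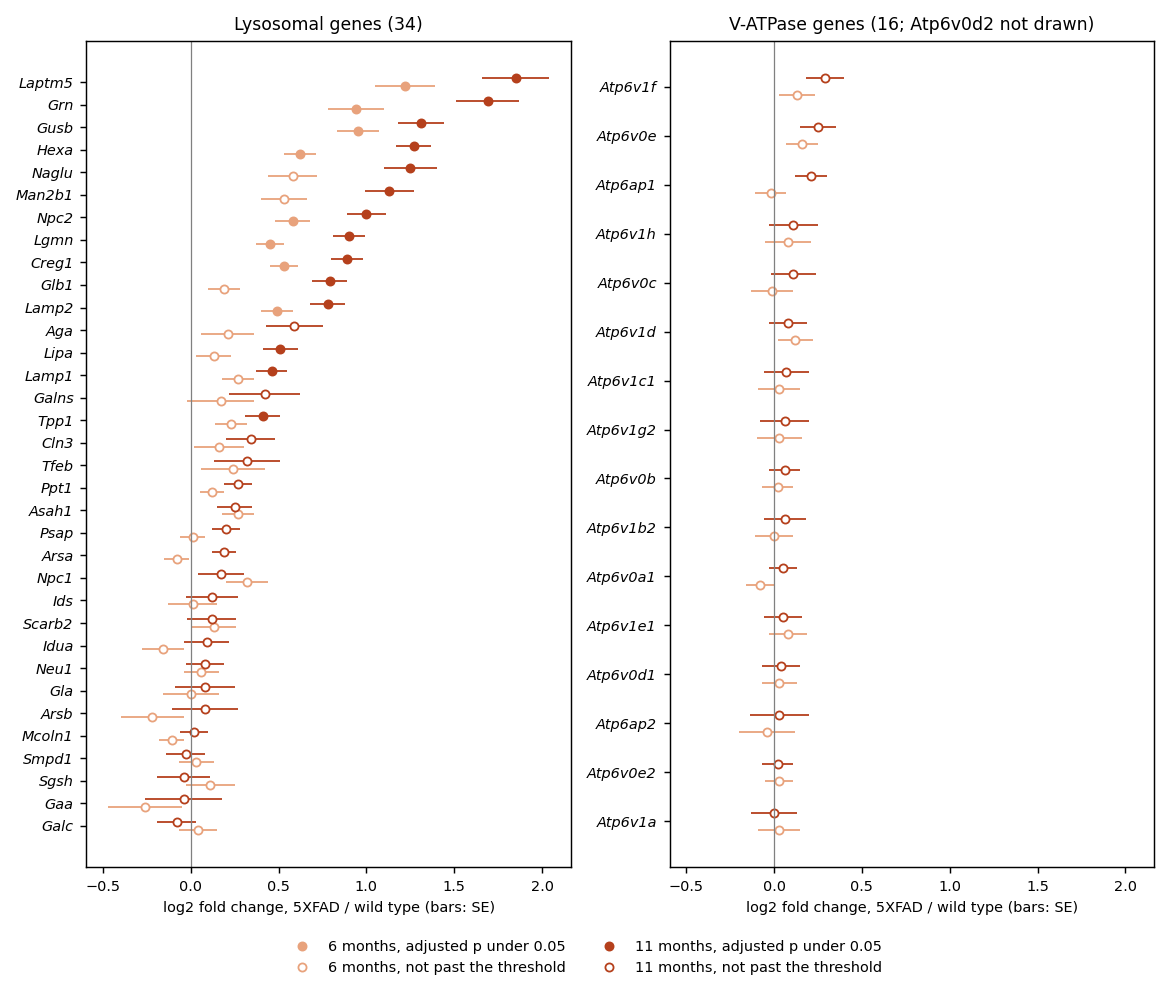
Log2 fold change of 5XFAD over wild type at 6 and 11 months for the 34 lysosomal and 16 V-ATPase genes. Each set has its own panel, ordered by the 11-month value. Bars give 1 standard error, and filled points mark an adjusted p under 0.05. Lysosomal genes spread to the right, to 1.85 for Laptm5 at 11 months, while the V-ATPase genes lie between -0.08 and 0.29. Atp6v0d2 is not drawn.

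Among the hydrolases, Hexa and Gusb moved most at 6 months. Hexa (chr9:59539540-59565109, GRCm38) codes for the alpha subunit of beta-hexosaminidase, which removes a sugar from GM2 ganglioside. Its level was 51.9, 45.5, 48.6 and 46.3 CPM in the wild-type libraries and 76.4, 74.2 and 71.2 CPM in the 5XFAD libraries. The groups did not overlap, and the log2 fold change was 0.62 ± 0.09 (SE, n = 4 and 3, edgeR adjusted p = 0.00202). Gusb (chr5:129989011-130003049), the beta-glucuronidase that trims glycosaminoglycans, had 12.6, 12.5, 13 and 10.6 CPM in wild type and 23.6, 20.5 and 26.5 CPM in 5XFAD. Every 5XFAD library lay above every wild-type library, with a log2 fold change of 0.95 ± 0.12 (edgeR adjusted p = 0.000674). Lgmn (chr12:102394084-102439813) codes for legumain, an asparagine-specific protease that also matures cathepsins. It stood at 96, 102, 104 and 104 CPM in wild type and 143, 136 and 135 CPM in 5XFAD, a log2 fold change of 0.45 ± 0.08 (edgeR adjusted p = 0.0105). The wild-type Lgmn values were tightly grouped and none reached the lowest 5XFAD value.

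Of the 4 soluble proteins that are not enzymes, 3 were called. Grn (chr11:102430315-102437048) codes for progranulin, a secreted glycoprotein that is cut into granulins inside lysosomes. Its level was 66.1, 59.7, 53.5 and 62.8 CPM in wild type and 101, 113 and 135 CPM in 5XFAD, a log2 fold change of 0.94 ± 0.16 (edgeR adjusted p = 0.00763). Npc2 (chr12:84754562-84773152) binds cholesterol inside the lysosome and hands it to the membrane protein Npc1. Npc2 measured 62, 55.4, 73 and 61.4 CPM in wild type and 91.3, 96.1 and 94.8 CPM in 5XFAD, a log2 fold change of 0.58 ± 0.10 (edgeR adjusted p = 0.00644). Creg1 (chr1:165763746-165775308), a secreted glycoprotein that reaches lysosomes, measured 27, 28.6, 28.6 and 29.9 CPM in wild type and 39.3, 40.9 and 43.1 CPM in 5XFAD. Its log2 fold change was 0.53 ± 0.08 (edgeR adjusted p = 0.00342), and for all 3 genes the 5XFAD libraries lay wholly above the wild-type ones. Psap, the fourth gene of this role and by far the most abundant, showed no call, at 1459.9 ± 90.3 CPM (SD, n = 4) in wild type and 1468 ± 23.2 CPM (SD, n = 3) in 5XFAD.

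Of the 7 membrane proteins, Laptm5 and Lamp2 were called at 6 months. Laptm5 (chr4:130913125-130936141), a lysosomal membrane protein made chiefly in cells of blood and immune origin, microglia included, had the largest change of any lysosomal member. It stood at 27.2, 26.7, 28.2 and 27.1 CPM in wild type and 61.3, 60.7 and 69.1 CPM in 5XFAD, a log2 fold change of 1.22 ± 0.17 (edgeR adjusted p = 0.00197). Lamp2, a heavily glycosylated protein of the lysosomal limiting membrane, measured 33.3, 38.8, 42.2 and 38 CPM in wild type and 53.2, 55.7 and 51.2 CPM in 5XFAD. Its log2 fold change was 0.49 ± 0.09 (edgeR adjusted p = 0.0135). Lamp1, Npc1, Cln3, Scarb2 and the calcium channel gene Mcoln1 did not pass, with log2 fold changes between -0.11 and 0.32.

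Counted without a test, 15 lysosomal genes had every 5XFAD library above every wild-type library at 6 months, where 6.97% of all genes did, and 1, Mcoln1, had every 5XFAD library below, where 5.07% of all genes did. None of the 5 sulfatases and none of the 4 lipid and thioester hydrolases passed the test at this age. With log2(TPM + 1) values in limma 4 of the 34 lysosomal genes were called, and with the 3 libraries named above left out 5 were. Other settings were tried as well (scaling, expression filter, test, sex as a covariate, single libraries left out). Hexa and Gusb were called under all 15 of these alternatives. Npc2, Creg1 and Laptm5 were called under 14, Grn under 13, Lgmn under 12 and Lamp2 under 11 of 15. Without the 3 libraries the calls of Lgmn, Grn and Laptm5 were lost (edgeR adjusted p = 0.0757, 0.0877 and 0.0601). In limma those of Lgmn, Npc2, Creg1 and Lamp2 were lost. Lamp2 is 1 of 5 members on the X chromosome, and with sex as a covariate its adjusted p in edgeR was 0.0553.

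**Figure D2:**
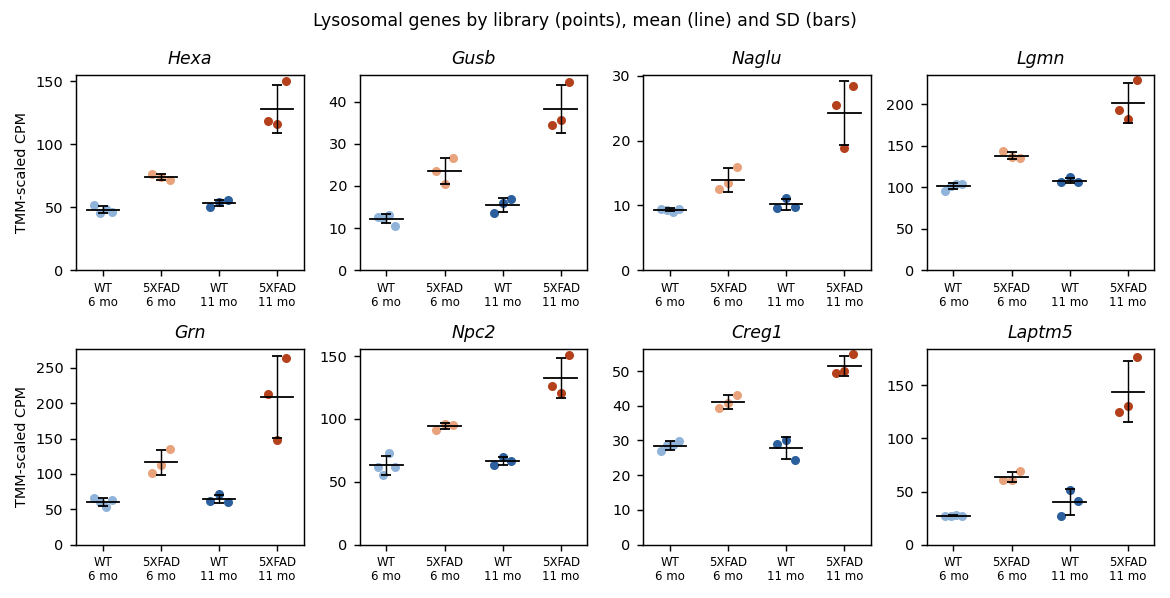
TMM-scaled CPM of 8 lysosomal genes in every library (points), with the group mean (line) and SD (bars), for wild type and 5XFAD at 6 and 11 months. For each gene the 5XFAD points at 6 months lie above the wild-type points, and the 11-month 5XFAD points lie higher again, as for Hexa at 71.2 to 76.4 and then 116 to 149.9 CPM.

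At 11 months, 14 of the 34 lysosomal genes were higher in 5XFAD and none was lower. That is 41.2%, against 3.8% of all genes called higher at this age and 0.503% called lower, and no member was lower at an unadjusted p under 0.05. The 14 held the 8 genes called at 6 months and added Man2b1, Glb1, Naglu, Lipa, Tpp1 and Lamp1. The median log2 fold change of the 34 was 0.33, against -0.03 over all genes. The groups did not overlap for 20 of the 34, all of them higher in 5XFAD, where 10.4% of all genes were higher and 8.76% lower without overlap. With any 1 library left out the count of called genes was 11 to 14.

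The glycosidases, which take sugars off glycoproteins, glycolipids and glycosaminoglycans, split into 5 that were called and 6 that were not. Aga, not strictly a glycosidase, was counted with them. Hexa stood at 50.3, 54.2 and 55.3 CPM in wild type and 118, 116 and 149.9 CPM in 5XFAD at 11 months, a log2 fold change of 1.27 ± 0.10 (SE, n = 3 and 3, edgeR adjusted p = 3.8e-06). Gusb stood at 13.6, 15.9 and 16.9 CPM in wild type and 34.4, 35.6 and 44.7 CPM in 5XFAD, a log2 fold change of 1.31 ± 0.13 (edgeR adjusted p = 3.17e-05). In both genes the lowest 5XFAD library had over 2 times the CPM of the highest wild-type library. Naglu (chr11:101070012-101077672), which acts on heparan sulphate, had 9.68, 11.2 and 9.7 CPM in wild type and 25.5, 18.9 and 28.5 CPM in 5XFAD. Its log2 fold change was 1.25 ± 0.15 (edgeR adjusted p = 0.000102). At 6 months Naglu had measured 9.42, 9.35, 9.04 and 9.52 CPM in wild type and 12.5, 13.4 and 16 CPM in 5XFAD, which did not overlap but missed the threshold (log2 fold change 0.58 ± 0.14, edgeR adjusted p = 0.0544). Man2b1, the lysosomal alpha-mannosidase, was also called at 11 months and not at 6. It stood at 35.9, 48 and 45 CPM in wild type and 87.5, 82.1 and 113 CPM in 5XFAD at 11 months (log2 fold change 1.13 ± 0.14, edgeR adjusted p = 0.000138). At 6 months it had stood at 37.2, 32.6, 39.2 and 38 CPM in wild type and 47.1, 55.7 and 56 CPM in 5XFAD (log2 fold change 0.53 ± 0.13, edgeR adjusted p = 0.0609). Glb1, the beta-galactosidase that acts on GM1 ganglioside, had 22.8, 20.8 and 22.6 CPM in wild type and 37.8, 33.9 and 42.8 CPM in 5XFAD (log2 fold change 0.79 ± 0.10, edgeR adjusted p = 0.000227). At 6 months its log2 fold change had been 0.19 ± 0.09 (edgeR adjusted p = 0.585).

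The 6 genes of the glycosidase class without a call at 11 months had small differences, apart from Aga. Neu1, the sialidase, had a log2 fold change of 0.08, Gla, the alpha-galactosidase, 0.08, Idua, the iduronidase, 0.09, Gaa, which breaks down glycogen, -0.04, and Galc, which acts on the myelin lipid galactosylceramide, -0.08. Aga, which cuts the bond between sugar and asparagine, reached 0.59 ± 0.16 but missed the threshold (edgeR adjusted p = 0.0555). None of the 5 sulfatases passed: the log2 fold change at 11 months was 0.42 ± 0.20 for Galns, 0.19 ± 0.07 for Arsa, 0.12 ± 0.15 for Ids, 0.08 ± 0.19 for Arsb and -0.04 ± 0.15 for Sgsh. These enzymes remove sulphate from sulphatide and glycosaminoglycans, and so share substrates with glycosidases such as Gusb and Naglu that were called.

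Of the lipid and thioester hydrolases, Lipa alone was called at 11 months. Lipa, the acid lipase that frees cholesterol and fatty acids from stored esters, stood at 14.1, 13.5 and 12.5 CPM in wild type and 17, 19.6 and 20.7 CPM in 5XFAD (log2 fold change 0.51 ± 0.10, edgeR adjusted p = 0.0103). Ppt1, which takes palmitate off proteins, had a log2 fold change of 0.27 ± 0.08 (edgeR adjusted p = 0.072), Asah1, the acid ceramidase, 0.25 ± 0.10 and Smpd1, the acid sphingomyelinase, -0.03 ± 0.11. Both proteases were called. Lgmn had 106, 112 and 106 CPM in wild type and 193, 182 and 229 CPM in 5XFAD at 11 months, a log2 fold change of 0.90 ± 0.09 (edgeR adjusted p = 2.05e-05). Tpp1, a tripeptidyl peptidase, had 76.8, 88.3 and 85.9 CPM in wild type and 109, 105 and 120.4 CPM in 5XFAD (log2 fold change 0.41 ± 0.10, edgeR adjusted p = 0.0279). The Tpp1 call was the least steady of the 14: it was made under 7 of 14 alternatives, with adjusted p up to 0.322 in the others.

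Grn had the largest change among the soluble proteins at 11 months, with 61.4, 71.6 and 60.3 CPM in wild type and 213, 148 and 264 CPM in 5XFAD, a log2 fold change of 1.69 ± 0.18 (edgeR adjusted p = 5.05e-05). The 5XFAD libraries differed widely among themselves for Grn, and even the lowest exceeded every wild-type library by over 2 times. Npc2 had 63.2, 69.9 and 66.1 CPM in wild type and 126, 121 and 151 CPM in 5XFAD (log2 fold change 1.0 ± 0.11, edgeR adjusted p = 4.93e-05). Creg1 had 28.9, 30.2 and 24.4 CPM in wild type and 49.6, 49.9 and 54.9 CPM in 5XFAD (log2 fold change 0.89 ± 0.09, edgeR adjusted p = 3.01e-05). In both genes the genotypes lay apart. Psap, at 1403 ± 35.4 CPM (SD, n = 3) in wild type and 1607 ± 56.2 CPM (SD, n = 3) in 5XFAD, again missed the threshold (log2 fold change 0.20 ± 0.08, edgeR adjusted p = 0.235), although its groups did not overlap.

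Among the membrane proteins, Laptm5 stood at 27, 51.4 and 41.5 CPM in wild type and 125, 130.4 and 177 CPM in 5XFAD at 11 months, a log2 fold change of 1.85 ± 0.19 (edgeR adjusted p = 5.03e-05). The wild-type libraries were uneven for Laptm5: replicates 2 and 3 stood above every 6-month wild-type library, while replicate 1 stood within their range. Lamp2 had 43.9, 47.6 and 48.1 CPM in wild type and 72.2, 79 and 88.5 CPM in 5XFAD (log2 fold change 0.78 ± 0.10, edgeR adjusted p = 0.000208). Lamp1, the other major membrane glycoprotein, had 308, 313 and 294 CPM in wild type and 376, 450.1 and 428 CPM in 5XFAD (log2 fold change 0.46 ± 0.09, edgeR adjusted p = 0.0111). Lamp1 was called under 10 of 14 alternatives. The transporters and carriers did not pass: the log2 fold change was 0.34 ± 0.14 for Cln3, 0.17 ± 0.13 for the cholesterol exporter Npc1, 0.12 ± 0.14 for Scarb2, which brings glucocerebrosidase to the lysosome, and 0.02 ± 0.08 for Mcoln1.

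Tfeb itself was not called at either age. It measured 8.23, 8.49, 12.9 and 7.8 CPM in wild type and 10.6, 10.9 and 11.7 CPM in 5XFAD at 6 months (log2 fold change 0.24 ± 0.18, edgeR adjusted p = 0.774). At 11 months it measured 13, 10.1 and 8.08 CPM in wild type and 12.6, 13.7 and 12.6 CPM in 5XFAD (log2 fold change 0.32 ± 0.19, edgeR adjusted p = 0.472). The groups overlapped at both ages, and the wild-type libraries with the highest values, replicate 3 at 6 months and replicate 1 at 11 months, reached or passed the 5XFAD range of their age.

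Microglia marker sums parted the genotypes at both ages, and astrocyte marker sums and the mitochondrial share did so at 6 months only. The summed CPM of 12 microglia markers lay between 293 and 300.4 in wild-type libraries and between 526 and 564 in 5XFAD libraries at 6 months. At 11 months it lay between 301 and 535 in wild-type and between 849 and 1184 in 5XFAD libraries. Of these 12 markers, 6 were called higher in 5XFAD at 6 months and 11 at 11 months, and none was at 0 in all libraries. The 10 astrocyte markers summed to 2980 to 3067 CPM in wild type and 3557 to 3931 CPM in 5XFAD at 6 months, and to 3448 to 5618 CPM in wild type and 5372 to 6462 CPM in 5XFAD at 11 months. Of these 10, 1 was called higher in 5XFAD at 6 months and 2 at 11 months. The 10 oligodendrocyte markers summed to 6616, 6833, 14126 and 6644 CPM in wild type and 12157, 10789 and 9958 CPM in 5XFAD at 6 months, and to 10195, 7025 and 5819 CPM in wild type and 7824, 11236 and 7411 CPM in 5XFAD at 11 months; none of them was called by genotype. At 6 months 8.38 to 8.88% of counts in wild type and 9.94 to 9.99% in 5XFAD fell on mitochondrial genes, without overlap. At 11 months wild-type replicates 1 to 3 had 7.89, 11.43 and 10.09% and the 5XFAD replicates 10.1, 10.4 and 11.3%, with overlap. Within each library, the median log2 level of the 34 lysosomal genes, set against the mean of wild type at 6 months, lay between -0.02 and 0.02 for wild type and between 0.17 and 0.21 for 5XFAD at 6 months. At 11 months it was 0.07, 0.19 and 0.06 in wild-type replicates 1 to 3 and 0.40, 0.52 and 0.54 in 5XFAD. Wild-type replicate 2, the highest of its group, also had the highest microglia and astrocyte marker sums of that group. The part of glial cell numbers and of the mitochondrial share in the lysosomal differences was not tested.

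**Figure D3:**
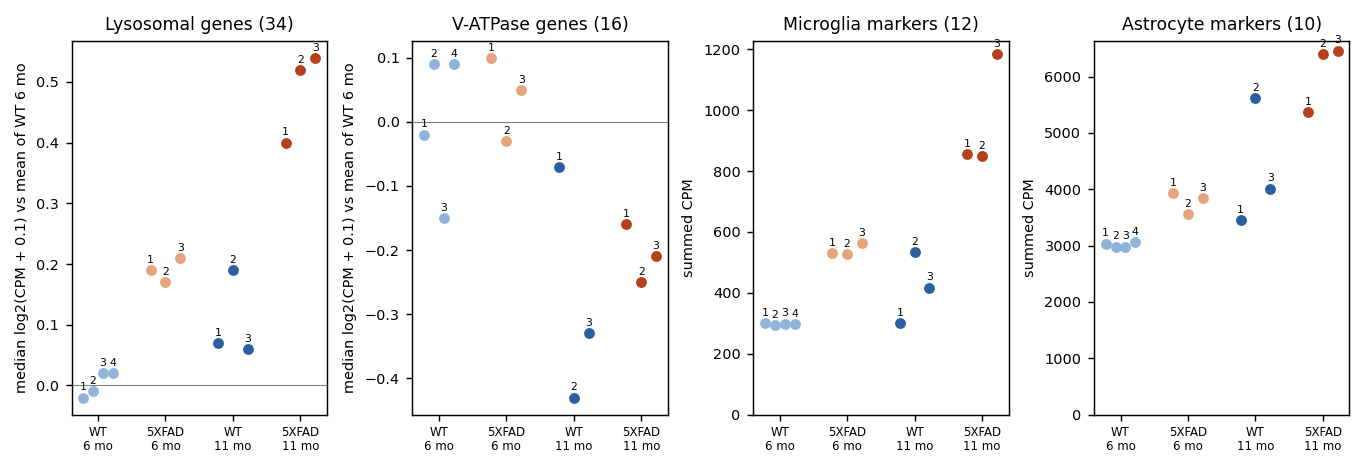
For every library (points, numbered by replicate), the median over the 34 lysosomal genes and over 16 V-ATPase genes (all but Atp6v0d2) of log2(CPM + 0.1) relative to the mean of wild type at 6 months, and the summed CPM of microglia and of astrocyte markers. The lysosomal median and the microglia sum are highest in the 3 5XFAD libraries at 11 months. The V-ATPase median is low at 11 months in both genotypes apart from wild-type replicate 1, at -0.07. Wild-type replicate 3 at 6 months, at -0.15, lies close to 5XFAD replicate 1 at 11 months, at -0.16.

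Among the V-ATPase genes the share called by genotype was near that of all genes. At 6 months none of the 17 was called by edgeR, against 1.3% of all genes called higher (1 had an unadjusted p under 0.05), none by DESeq2 or limma, none had groups that did not overlap, and the median log2 fold change was 0.03. At 11 months 1 of 17, Atp6v0d2, was called higher, which is 5.88% of the set against 3.8% of all genes, and none was lower. The median log2 fold change was then 0.06. Atp6v0d2 passed the expression filter only through its 11-month 5XFAD libraries, and none of the other 16 was called at 11 months. These 16 ranged from -0.08 to 0.16 at 6 months and from 0.00 to 0.29 at 11 months, and 3 of them had an unadjusted p under 0.05 at 11 months. In log2(TPM + 1) values, where the median of all genes lay at -0.107 at 6 months and -0.118 at 11 months, the median of the 17 was -0.10 and -0.06.

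Atp6v0d1 and Atp6v0d2 are paralogs that code for the d subunit, the stalk piece that couples the V1 rotor to the V0 ring. Atp6v0d1 is the form found in most tissues, and Atp6v0d2 is known from osteoclasts, macrophages and epithelia. Atp6v0d1 stood at 251, 271, 235 and 269.5 CPM in wild type and 273, 250.1 and 263 CPM in 5XFAD at 6 months (log2 fold change 0.03 ± 0.10, edgeR adjusted p = 0.963). At 11 months it stood at 257, 187 and 204 CPM in wild type and 224, 218 and 226 CPM in 5XFAD (log2 fold change 0.04 ± 0.11, edgeR adjusted p = 0.9). The genotypes overlapped at both ages. Atp6v0d2 (chr4:19876841-19922605) was close to absent in wild type, with 4, 2, 0 and 0 counts at 6 months and 0 counts in each of the 3 libraries at 11 months. The 5XFAD libraries held 3, 7 and 10 counts of it at 6 months and 34, 28 and 62 counts at 11 months. At 6 months the difference was not called (log2 fold change 2.06 ± 0.87, edgeR adjusted p = 0.478). At 11 months it was called (edgeR adjusted p = 0.00109), and the 5XFAD mean of 1.64 CPM was at least 40.3-fold higher than the 0.0406 CPM that 3 counts over the whole wild-type group would give. No library outside that 5XFAD group exceeded 0.389 CPM, so the gene passed the expression filter only through the group where it was high. The call was made under all 14 alternatives, the fit without that filter among them. Even so, the Atp6v0d2 total over the 13 libraries was 150 counts. Its mean level of 0.900 TPM in 5XFAD at 11 months was the lowest of the 17 V-ATPase members.

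Atp6v0e and Atp6v0e2 form the second pair of paralogs, coding for the small e subunit of V0. Atp6v0e measured 21, 18.4, 19.4 and 17.4 CPM in wild type and 22.1, 21.6 and 20.3 CPM in 5XFAD at 6 months (log2 fold change 0.16 ± 0.09, edgeR adjusted p = 0.65). At 11 months it measured 19.8, 22.1 and 21.4 CPM in wild type and 25.2, 23.1 and 27.1 CPM in 5XFAD (log2 fold change 0.25 ± 0.10, edgeR adjusted p = 0.19). Its 11-month groups did not overlap, yet the difference missed the threshold. Atp6v0e2, the more abundant form here, measured 413, 371 and 367 CPM in wild type and 384, 392 and 389.9 CPM in 5XFAD at 11 months (log2 fold change 0.02 ± 0.09, edgeR adjusted p = 0.951).

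Further pump genes were Atp6v1f and Atp6ap1, with the next smallest p at 11 months after Atp6v0e, and Atp6v0b, Atp6v0c, Atp6v1d and Atp6v1h, all far from the threshold by genotype. Atp6v1f, a subunit of the V1 rotor, had 119.7, 89.6 and 94.4 CPM in wild type and 127, 112 and 131 CPM in 5XFAD at 11 months (log2 fold change 0.29 ± 0.11, edgeR adjusted p = 0.207). Wild-type replicate 1 lay within the 5XFAD range, and without it Atp6v1f was called (log2 fold change 0.42, edgeR adjusted p = 0.0329). Atp6ap1, an accessory protein that helps the pump assemble, had 371, 312 and 352 CPM in wild type and 392, 404 and 402 CPM in 5XFAD (log2 fold change 0.21 ± 0.09, edgeR adjusted p = 0.296). Those groups did not overlap, as for Atp6v0e. Atp6v0d2 was left out of this count, since it passed the expression filter only through its 11-month 5XFAD libraries. That makes 2 of 16 genes, where 10.4% of all genes were higher without overlap. At 6 months Atp6v1f had measured 141, 121, 119.8 and 129.7 CPM in wild type and 146, 132 and 140.4 CPM in 5XFAD, and Atp6ap1 392, 428, 357 and 422 CPM and 426, 372 and 389 CPM, with overlap in both.

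Atp6v0b and Atp6v0c code for proteolipids of the V0 ring. Atp6v0b stood at 227, 182 and 196 CPM in wild type and 215, 197 and 218 CPM in 5XFAD at 11 months (log2 fold change 0.06 ± 0.09), and at 248, 249, 219.8 and 251 CPM and 251, 232 and 253 CPM at 6 months. Atp6v0c stood at 1219, 846 and 965 CPM in wild type and 1144, 1019.7 and 1110.1 CPM in 5XFAD at 11 months (log2 fold change 0.11 ± 0.13), and at 1315, 1437, 1157 and 1443 CPM and 1281, 1272 and 1435 CPM at 6 months. In both genes 1 wild-type library at 11 months, replicate 1, lay above all the 5XFAD libraries of that age. Atp6v1h, a regulatory subunit of V1, had 159, 104 and 131 CPM in wild type and 149.7, 133 and 142 CPM in 5XFAD at 11 months (log2 fold change 0.11 ± 0.14), and 179, 179.7, 152 and 183 CPM and 213, 168 and 169 CPM at 6 months. Of other V1 subunits, Atp6v1a had a log2 fold change of 0.00 ± 0.13 and Atp6v1b2 of 0.06 ± 0.12 at 11 months.

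**Figure D4:**
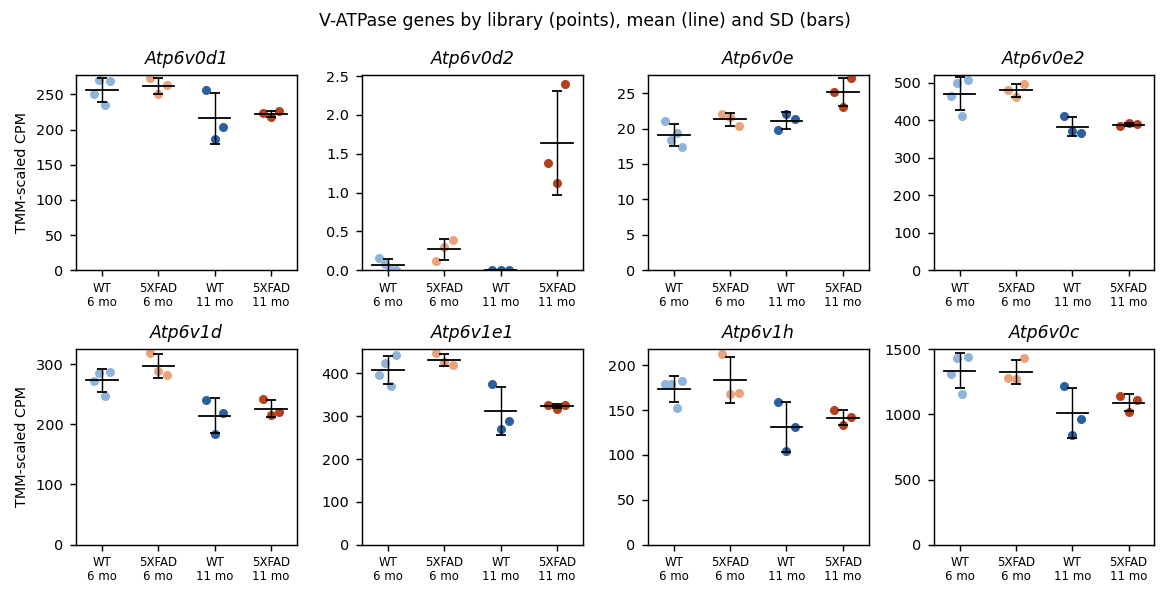
TMM-scaled CPM of 8 V-ATPase genes in every library (points), with the group mean (line) and SD (bars). Atp6v0d2 is detected mainly in 5XFAD at 11 months, at 1.13 to 2.40 CPM, while the abundant subunits overlap between genotypes and are mostly lower at 11 than at 6 months.

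Whether the genotype difference grew with age was tested as an interaction, the difference at 11 months minus that at 6 months. No lysosomal and no V-ATPase gene was called, where 0.00572% of all genes (1 gene) were called higher and 0.0% lower. At an unadjusted p under 0.05, 12 of the 34 lysosomal genes and 1 of the 17 V-ATPase genes had a larger genotype difference at 11 months. The share of all genes at that unadjusted p was not counted, so these 2 counts cannot be set against it. The median interaction of the lysosomal genes was 0.23 and that of the V-ATPase genes 0.04, against -0.01 over all genes. Hexa had the smallest adjusted p of the members, with a log2 difference of 0.64 ± 0.13 (edgeR adjusted p = 0.453). DESeq2 called 2 lysosomal genes higher, Glb1 and Hexa, where 28 of 30730 genes were called higher.

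Within 5XFAD, 13 of 34 lysosomal genes were higher at 11 than at 6 months and none was lower. That is 38.2%, against 4.84% of all genes called higher and 2.39% called lower. The 13 were Hexa, Gusb, Man2b1, Glb1, Naglu, Lipa, Tpp1, Lgmn, Grn, Npc2, Creg1, Lamp2 and Laptm5, in a comparison that shares its 11-month 5XFAD libraries with the one by genotype. The median of the 34 was 0.34. Laptm5 was higher by 1.18 ± 0.19, Grn by 0.84 ± 0.17, Man2b1 by 0.83 ± 0.13 and Naglu by 0.80 ± 0.14 on the log2 scale. The 5XFAD groups differ in sex, with 3 males at 6 months and 2 females and 1 male at 11 months. When the model included sex, calls came to 9, namely 8 of the 13 and Arsb, and the calls of Glb1, Lipa, Tpp1, Grn and Creg1 were lost. The count was also sensitive to single libraries: it was 4 without 5XFAD replicate 3 at 11 months, and 5, 7 and 8 without 5XFAD replicates 1, 2 and 3 at 6 months. In wild type no lysosomal gene was called between the ages, where 2.42% of all genes were called higher and 1.29% lower, and the median was 0.10. In 5 of the 34 every 11-month wild-type library lay above every 6-month one, where 9.11% of all genes did. DESeq2 called 3 higher, Galc, Lamp2 and Laptm5, where 1011 of 30730 genes were called higher. Leaving out the 3 libraries that stood apart gave 2, Cln3 and Npc1, where 710 of 17690 genes were called higher. In the main fit 6 had an unadjusted p under 0.05, all higher at 11 months. Microglia marker sums in wild-type replicates 2 and 3 at 11 months, 535 and 417 CPM, were above all wild-type libraries at 6 months.

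Most V-ATPase genes had lower mean levels at 11 than at 6 months in both genotypes, and few of these differences passed the test. In wild type the median log2 fold change was -0.30, against 0.02 over all genes. Of the 17 genes 15 lay below 0 and 10 had an unadjusted p under 0.05, while none was called, where 1.29% of all genes were called lower. The shares of all genes below 0 or at that unadjusted p were not counted for either genotype. In 5XFAD the median was -0.24, 13 of 17 lay below 0, and 2 genes were called lower, where 2.39% of all genes were. Atp6v0d2, which entered the test through its 11-month 5XFAD libraries, was called higher (log2 fold change 2.59 ± 0.64, edgeR adjusted p = 0.0341), where 4.84% of all genes were. With sex as a covariate its edgeR adjusted p was 0.18, and both lower calls were made. The 2 lower genes code for parts of the V1 stalks: Atp6v1d for the central rotor and Atp6v1e1 for the peripheral stalk. Atp6v1d stood at 319, 289.6 and 282 CPM in 5XFAD at 6 months and 243, 215 and 221 CPM at 11 months (log2 fold change -0.39 ± 0.11, edgeR adjusted p = 0.0404). In wild type it stood at 273, 286, 247 and 288 CPM and 241, 184 and 219 CPM (log2 fold change -0.35 ± 0.10, edgeR adjusted p = 0.0615). Neither pair of age groups overlapped. Atp6v1e1 stood at 448, 428 and 421 CPM in 5XFAD at 6 months and 326, 318 and 326 CPM at 11 months (log2 fold change -0.42 ± 0.11, edgeR adjusted p = 0.0406). Its wild-type values were 396, 425, 370.2 and 444 CPM at 6 months and 376, 271 and 288 CPM at 11 months, where replicate 1 reached the 6-month range. Both 5XFAD calls were lost without any 1 of the 6 5XFAD libraries.

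Groups that did not overlap were more common than calls. In 5XFAD, 12 of 17 V-ATPase genes had every 11-month library below every 6-month library, where 17.3% of all genes did. Atp6v0d2 was left out of the opposite count, since it entered the test through its 11-month 5XFAD libraries. Of the other 16, 1, Atp6v0e, had every 11-month library above, where 18.4% of all genes did. In wild type, 3 of 17, Atp6v0e2, Atp6v1d and Atp6v1f, had every 11-month library below, where 7.96% of all genes did. Atp6v0e2 had 464, 499, 413 and 509 CPM in wild type and 482, 462 and 497 CPM in 5XFAD at 6 months. Its change with age was -0.30 ± 0.08 on the log2 scale in wild type (edgeR adjusted p = 0.0622) and -0.31 ± 0.09 in 5XFAD (edgeR adjusted p = 0.0564). The wild-type libraries at 11 months were uneven: the median of the V-ATPase genes other than Atp6v0d2 was -0.07 in replicate 1 at 11 months and -0.43 and -0.33 in replicates 2 and 3. Without replicate 1 at 11 months 10 of the 17 were called lower, with a median of -0.44, where 923 of 17873 genes were called lower. Without wild-type replicate 3 at 6 months 1 was, where 94 of 17429 genes were. DESeq2 called 7 lower in wild type, where 837 of 30730 genes were called lower. With the 3 libraries that stood apart left out 1, Atp6v0e2, was called lower, where 344 of 17690 genes were. Neuron marker sums ran from 8941 to 11481 CPM in wild type and from 10893 to 11445 CPM in 5XFAD at 6 months, and from 8605 to 11787 CPM and from 10826 to 11384 CPM at 11 months. The median log2 fold change of the 12 neuron markers with age was -0.12 in wild type and -0.14 in 5XFAD, with none called. Endothelial and mural markers summed to 239 to 295 CPM at 6 months and 327 to 527 CPM at 11 months. Striatum markers summed to 1521 to 3702 CPM in wild type and 715 to 2208 CPM in 5XFAD at 6 months, and to 665, 426 and 3063 CPM in wild type and 399.6 to 964 CPM in 5XFAD at 11 months. Their median log2 fold change with age was -0.81 in wild type and -1.18 in 5XFAD, with none of the 8 called. Wild-type replicate 1 at 11 months, with the least lowered pump genes of that group, also had its lowest mitochondrial share, 7.89%. The part of cell composition, region and RNA quality in the age differences was not tested.

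**Figure D5:**
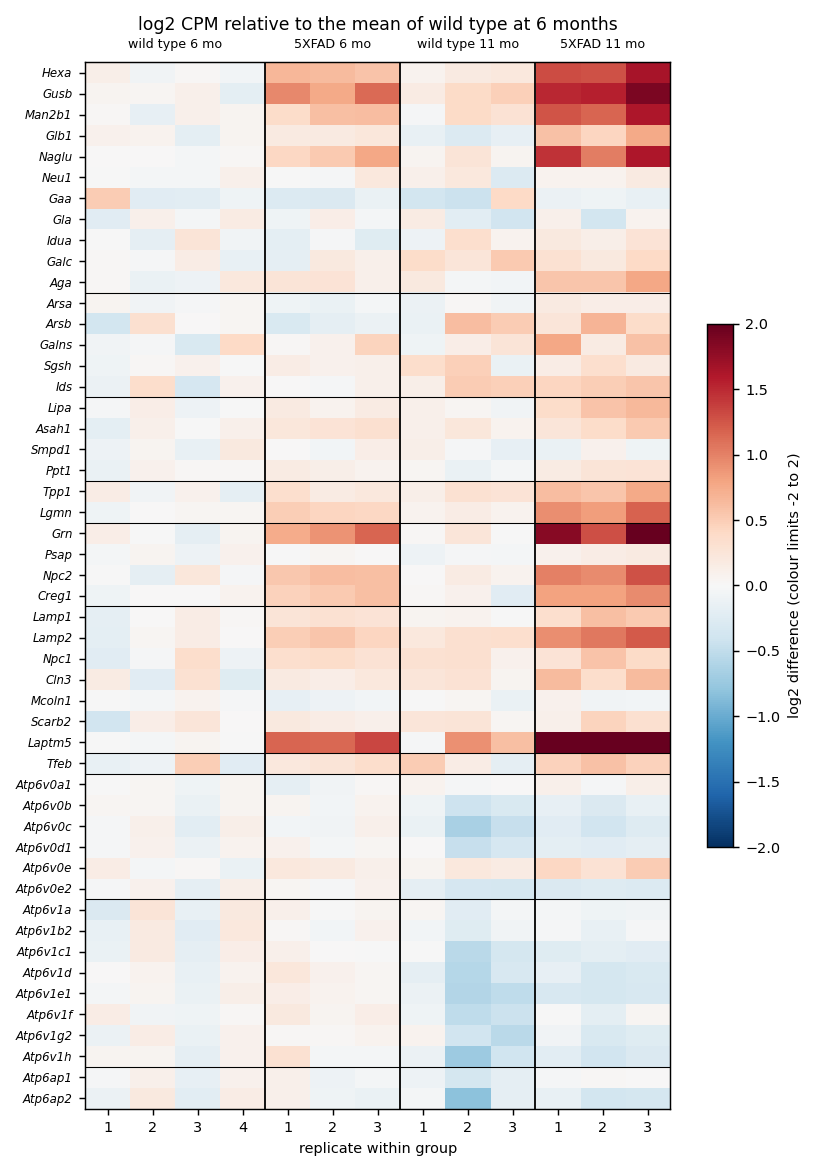
Log2 level of the members other than Atp6v0d2 (rows, by role) in each of the 13 libraries (columns, by group). Levels are relative to the mean of wild type at 6 months. Lysosomal genes such as Grn, Hexa and Laptm5 are raised in all 6 5XFAD libraries, and most V-ATPase rows are lowered in the 11-month libraries other than wild-type replicate 1.

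Other genes of the same pathways were read from 3 lists. Of 60 lysosomal genes outside the members, 59 were tested, 13 were called higher in 5XFAD at 6 months (22%, against 1.3% of all genes) and 24 at 11 months (40.7%, against 3.8%), and none was called lower. Their median log2 fold changes were 0.17 and 0.27, close to the 0.18 and 0.33 of the 34 members. The protease gene Ctsd changed by 1.33 ± 0.11 at 6 months and 2.10 ± 0.12 at 11 months, and Cd68, a lysosomal membrane protein of macrophages and microglia, by 2.07 ± 0.18 and 3.12 ± 0.21. Of 20 V-ATPase genes outside the members, 16 were tested, none was called at 6 months (1 had an unadjusted p under 0.05) and 1, Tcirg1, was called at 11 months, a share of 6.25% that is near the 3.8% of all genes. Tcirg1 codes for the a3 form of the V0 a subunit, known from osteoclasts and immune cells. It had 17.4, 22.7 and 21.5 CPM in wild type and 41.4, 29.5 and 47.2 CPM in 5XFAD (log2 fold change 0.94 ± 0.22, edgeR adjusted p = 0.0283), and was called under 8 of 14 alternatives. Atp6v0a1, the member that codes for the neuronal a1 form, had 0.05 ± 0.08. Of 22 genes of the TFEB family and of nutrient signalling at the lysosome, 21 were tested, none was called at 6 months (2 had an unadjusted p under 0.05) and 1, Fnip2, was higher at 11 months (0.55 ± 0.11, edgeR adjusted p = 0.00899), a share of 4.76%.

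The promoters of members were searched for CACGTG, the core of the TFEB site, in RefSeq sequences (GRCm38.p6) that run from 250 bases before to 50 after the annotated start. The letters read the same on both strands, so 1 search covers both. Some genes had more than 1 annotated start, and a gene counted if any of its sequences held the letters. Lgmn and Cln3 held them at some but not all of their starts. Of the 51 members, 43 had a sequence: 30 lysosomal and 13 V-ATPase genes. CACGTG was present in 10 of 30 lysosomal promoters (33.3%) and in 4 of 13 V-ATPase promoters (30.8%), against 2187 of 27025 genes in the whole table (8.09%). Within the lysosomal set it was present in 4 of 14 genes called at 11 months (28.6%: Glb1, Naglu, Lgmn and Lamp1) and in 6 of 16 not called (37.5%: Gaa, Gla, Arsa, Sgsh, Cln3 and Mcoln1).

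The 5 promoters below, chosen after the values were seen, are 2 of called genes and 2 of uncalled genes that hold the letters, and 1 of a called gene that does not, with CACGTG in capitals (a neighbouring base that extends it to TCACGTG or CACGTGA is in capitals too). Each is 300 bases on the strand of its gene. Lamp1 (chr8:13158911-13159210, plus strand) held 4 copies, at -61, -45, -28 and -15 from the start, and Naglu (chr11:101069844-101070143, plus strand) held 1, at -73. Both genes were called higher at 11 months. Mcoln1 (chr8:3500269-3500568, plus strand) held 2 copies, at -71 and -45, and Atp6v0b (chr4:117887280-117887579, minus strand) held 2, at -36 and -18. Neither was called. Laptm5 (chr4:130913066-130913365, plus strand), with the largest rise of the lysosomal members, held none. A match is a run of letters and not a measured binding site.
Lamp1: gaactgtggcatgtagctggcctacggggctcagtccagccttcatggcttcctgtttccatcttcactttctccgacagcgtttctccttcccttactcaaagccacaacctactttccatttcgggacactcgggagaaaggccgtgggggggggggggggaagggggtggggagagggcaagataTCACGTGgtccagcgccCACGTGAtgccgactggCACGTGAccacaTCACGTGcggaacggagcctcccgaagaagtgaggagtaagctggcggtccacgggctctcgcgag
Naglu: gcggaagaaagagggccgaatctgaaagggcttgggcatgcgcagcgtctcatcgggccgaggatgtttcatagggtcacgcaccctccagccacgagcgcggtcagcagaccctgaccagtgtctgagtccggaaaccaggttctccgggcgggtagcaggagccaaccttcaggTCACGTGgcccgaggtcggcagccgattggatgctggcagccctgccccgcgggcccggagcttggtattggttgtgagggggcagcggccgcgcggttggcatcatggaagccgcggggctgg
Mcoln1: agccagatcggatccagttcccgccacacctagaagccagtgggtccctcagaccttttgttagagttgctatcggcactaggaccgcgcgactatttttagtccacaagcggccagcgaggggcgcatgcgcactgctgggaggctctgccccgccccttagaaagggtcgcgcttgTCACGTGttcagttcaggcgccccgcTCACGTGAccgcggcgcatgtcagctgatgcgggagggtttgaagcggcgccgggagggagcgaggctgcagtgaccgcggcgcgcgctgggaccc
Atp6v0b: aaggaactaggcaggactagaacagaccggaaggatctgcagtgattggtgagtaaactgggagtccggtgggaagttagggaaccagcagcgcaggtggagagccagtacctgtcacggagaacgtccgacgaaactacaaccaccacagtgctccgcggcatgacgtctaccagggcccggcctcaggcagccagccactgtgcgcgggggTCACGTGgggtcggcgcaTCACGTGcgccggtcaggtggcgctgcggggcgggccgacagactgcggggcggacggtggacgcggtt
Laptm5: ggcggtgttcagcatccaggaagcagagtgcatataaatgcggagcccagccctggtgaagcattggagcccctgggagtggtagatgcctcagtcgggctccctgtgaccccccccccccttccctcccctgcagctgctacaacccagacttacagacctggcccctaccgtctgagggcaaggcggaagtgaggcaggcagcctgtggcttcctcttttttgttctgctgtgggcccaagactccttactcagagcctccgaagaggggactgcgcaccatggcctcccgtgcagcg

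The counting of overlapping genes limits some values. Hexa, Grn and Lamp1 overlap a gene model on the opposite strand (Tmem202, Fam171a2 and Grtp1) and Glb1 overlaps Tmppe on its own strand. In all, 18 members overlap a model on the opposite strand and 6 one on the same strand. The strand setting of the counting is not given in the sources used here, so reads of such pairs may not have been kept apart. Reads shared between genes were rare for members: 9 of 51 had an expected count that was not whole in some library, at most 0.19% of a gene's total (Sgsh).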

How the data were processed

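Frontal cortex RNA of 13 libraries in 4 groups was analysed. Per the submitters' processing notes, reads were handled with STAR 2.7.1 and RSEM on GRCm38 (which release of RSEM, which annotation and which strand mode: not given in the sources used here). Deposited by the authors, per the file headers, were an expected count (7.24 to 7.71% not whole) and TPM per gene and library. All 55536 identifiers matched GENCODE M21, used for symbols and positions. Expected counts were rounded, filtered with filterByExpr (minimum count 10) and scaled by TMM. A robust quasi-likelihood model of 4 group means was fitted over all libraries with edgeR 4.0.16 in R 4.3.3, with Benjamini-Hochberg adjustment over 17483 genes and a threshold of 0.05. The same code was tested on simulated data. Standard errors were derived from the fold change and F statistic. No share over all genes was counted for an unadjusted p under 0.05. Alternatives used limma 3.58.1 on log2(TPM + 1), with a pseudocount of 1, DESeq2 1.42.0, other scaling, no expression filter, a length offset, the groups of a comparison alone, sex as a covariate, and libraries left out. The set without the 3 libraries that stood apart was chosen after seeing the data. Values in every library are given for the 8 members of each set with the smallest p at 11 months and the 4 at 6 months, the paralog pairs and Tfeb. They are given also for other members that were called, but for Glb1, Lipa, Tpp1 and Lamp1 at 11 months only. From each list of other pathway genes, names were taken from the 5 with the smallest p per comparison. Members and lists were chosen with earlier results of these data known. A count of 3 over a group was taken as the floor where a group held 0; it covers counting error only.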

Additional observations from a re-analysis of the deposited data

Results flagged for a closer look

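In the 4 wild-type libraries at 6 months, the only group of 4 or more and so the only one searched with Dixon's test of a single far value, 8 of 59 genes and marker sums held a library far from the other 3. Chance flags about 1 in 20 such groups, and genes of 1 library share its tissue.

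Replicate 3 had 5 of the gene and marker values. Glb1 stood at 22 CPM there against 26.1 to 26.7 in the others, Atp6v0b at 219.8 CPM against 248 to 251, and Atp6v1h at 152 CPM against 179 to 183. Tfeb stood higher, at 12.9 CPM against 7.80 to 8.49. Oligodendrocyte markers summed to 14126 CPM in the same library against 6616 to 6833.

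Replicate 1 had the other 3. Gaa stood at 441 CPM against 266 to 294, Lgmn at 96.0 CPM against 102 to 104, and choroid plexus markers summed to 3001 CPM against 16 to 39.1. Gaa was also high, at 409 CPM, in wild-type replicate 3 at 11 months.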

How the results depend on the processing

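No count or median reversed its direction past a threshold. With log2(TPM + 1) in limma, 4 in place of 8 lysosomal genes were called at 6 months, with a median of 0.06 in place of 0.18, and the 11-month median was 0.20 in place of 0.33; the medians of all genes were then -0.107 and -0.118, and all calls split into 137 higher and 37 lower at 6 months and 518 and 338 at 11 months, against 228 and 3 and 665 and 88. Leaving out the 3 libraries that stood apart gave 5 lysosomal genes at 6 months. Single libraries left out gave 6 to 9 lysosomal genes at 6 months and 11 to 14 at 11 months, 1 to 2 V-ATPase genes higher at 11 months with a median of -0.01 to 0.21, and 4 to 11 lysosomal genes higher with age in 5XFAD. DESeq2 called 2 lysosomal genes in the interaction in place of 0.

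Between ages in wild type, lysosomal genes called higher were 3 with DESeq2, 2 without the 3 libraries and 0 to 2 with single libraries left out, in place of 0. V-ATPase genes called lower were 7 with DESeq2, 1 without the 3 libraries and 0 to 10 with single libraries left out, in place of 0, and their median was -0.44 to -0.19. Between ages in 5XFAD, V-ATPase genes higher were 0 with DESeq2, 0 with sex as a covariate, 2 with a length offset and 0 to 0 with single libraries left out, in place of 1. V-ATPase genes lower were 0 without the expression filter, 1 in limma, 7 with the 2 groups alone, 0 with a length offset and 0 to 0 with single libraries left out, in place of 2. The causes were not tested.

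All genes called at 6 months were 231, or 381 with DESeq2. At 11 months they were 753, or 443 with the 2 groups alone. In the interaction there was 1, or 30 with DESeq2, 4 in limma and 4 without the 3 libraries. With age in wild type there were 649, or 1848 with DESeq2, 296 in limma, 1 with the 2 groups alone, 345 with sex as a covariate, 60 with a length offset and 1054 without the 3 libraries. With age in 5XFAD there were 1264, or 2084 with DESeq2, 825 in limma, 2610 with the 2 groups alone and 799 with a length offset. Single libraries left out gave 134 to 205, 424 to 840, 1 to 3, 0 to 1921 and 97 to 798 in these 5 comparisons. No paired analysis was possible because the labels give no replicate numbers shared between groups. Depth limits Atp6v0d2 alone among the members, with 150 counts in all.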
